A study of Mus musculus with 8 samples.

Results

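The genes of B cell receptor signalling are a set of 33 mouse genes chosen by symbol out of 43629 genes in the deposited count table; the choice applies no cutoff to their values, but it was made with earlier results of these data known. By their GRCm38 identifiers 32 of them matched a row and were analysed, and all 32 passed the filter on low counts. Lilrb4a, an inhibitory receptor gene, matched no row by its identifier and was not analysed here. By textbook role the 33 genes comprise 24 activating components, 8 inhibitory components (7 without Lilrb4a) and Lyn, a kinase that acts both ways and was kept apart.

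RNA was sequenced from follicular B cells of mouse spleen, first enriched with a kit for B cells and afterwards flow sorted with a gate that the labels describe as B220, CD93, CD21 and CD23 positive. The 4 libraries labelled GFP-ZFP36L1 carried the genotype Rosa26GFPZFP36L1 CD23cre/+, and the 4 control libraries carried Rosa26GFPZFP36L1 with no Cre, so that both groups held the GFP-ZFP36L1 allele at Rosa26. Cre was driven from CD23, a gene switched on as B cells mature, and the effects of Cre and of the allele it activates cannot be told apart in this design. The comparison asks how the transcriptome differs when follicular B cells express ZFP36L1, an RNA-binding protein that recognises AU-rich stretches of 3' UTRs and speeds the decay of their mRNAs, as a fusion with GFP. The labels give no age, sex or strain and leave unsaid whether each library is from its own animal; the p-values therefore describe library-to-library spread, which may be technical.

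The libraries held 38947758 to 51024233 counts each. Zfp36l1 fell in the libraries labelled GFP-ZFP36L1, at 439 ± 28.6 against 547 ± 35.1 counts per 1000000 (CPM) in the controls (mean ± SD, n = 4 each; adjusted p = 0.0348, edgeR's quasi-likelihood test), and that call held without GFP-ZFP36L1 replicate 1 (adjusted p = 0.0141, edgeR) but was lost without any other 1 library, at adjusted p of 0.0701 to 0.105. Gt(ROSA)26Sor, a noncoding gene at the Rosa26 locus, stood at 3.90 ± 0.604 against 16.9 ± 2.58 CPM, without overlap of the groups. Its log2 fold change was -2.11 ± 0.135 (SE; adjusted p = 4.14e-05, edgeR's quasi-likelihood test). The fall of Zfp36l1 runs against the label, but it is not known whether reads of the GFP-ZFP36L1 allele were counted on that gene. Zfp36l1 counts therefore cannot decide whether the fusion was expressed. Every direction below is that of the libraries labelled GFP-ZFP36L1. On the first principal component (37.3% of variance) replicates 1 to 4 were at -7.54, 7.38, 13.3 and 33.01 in the labelled group and at -23.1, -12.9, -6.85 and -3.26 in the controls. Replicates were numbered in the order of the numbers in the sample titles, so that in both groups this score increased with the title number; the labels do not say what that number stands for. The median deviation of the shortest 25% of transcripts ran from -0.096 to 0.046 on the log2 scale in the labelled libraries and from -0.021 to 0.13 in the controls. All 11 B cell markers were present, summing to 19386 to 21817 CPM in the labelled libraries and 21538 to 23197 CPM in the controls, and 2 of them, Pax5 and Ighd, were called lower. Of these markers 10 had negative log2 fold changes, all but Cr2, and Cd79a, Cd79b and Cd22 belong to the set; the other 8 summed to 14106 to 15540 CPM in labelled libraries and 15331 to 16619 CPM in controls, with 7 negative. The 7 marginal zone markers, Cr2 among them, summed to 1848 to 2155 CPM in labelled libraries and 1784 to 1980 CPM in controls. Of these, 5 had positive and 2 negative log2 fold changes, and 0 were called. The part of the B cell and marginal zone markers in the results below was not tested. The 11 T cell markers summed to at most 6.09 and 4.49 CPM in labelled and control libraries. Cd93, a marker in the gate as labelled, was low, at 8.87 to 14.6 and 8.40 to 13.2 CPM in labelled and control libraries. It was listed here among the markers of transitional B cells, and the CD93 positive gate of the labels may be a typing error. In such bulk samples fewer cells of a type and less RNA per cell cannot be told apart.

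The B cell receptor is a membrane immunoglobulin paired with CD79A and CD79B, whose tails carry the tyrosine motifs that Src family kinases phosphorylate and that then dock the kinase SYK. SYK acts through the scaffold BLNK, the kinase BTK and the phospholipase PLCG2 to release calcium and to switch on protein kinase C beta, NF-kB and NFAT, while PI3-kinase makes the membrane lipid that recruits BTK. The pathway is restrained by receptors with inhibitory tyrosine motifs, among them CD22 and Siglec-G, which bring the phosphatase encoded by Ptpn6 to the membrane, and in resting follicular B cells this balance sets the threshold for activation.

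Levels across genes, compared per length as transcripts per 1000000 (TPM, mean ± SD of all 8 libraries), differed widely over the set. The receptor chains were highest, with Cd79a at 5153 ± 249.8 TPM and Cd79b at 3429.6 ± 233 TPM. Next came 2 inhibitory genes, the phosphatase gene Ptpn6 at 1153 ± 43.1 TPM and Cd22 at 1136 ± 102 TPM, which did not differ from each other by more than their spread. Of the Src family kinases Blk was the most abundant at 633 ± 47.5 TPM, Lyn stood at 329 ± 20.2 TPM, and Fyn, better known from T cells, at 32.8 ± 3.21 TPM. Syk and Btk stood at 419 ± 22.04 and 342 ± 11.9 TPM. The lowest levels were those of Stim1 and Sos1. Stim1, the calcium sensor of the endoplasmic reticulum, stood at 19.2 ± 1.16 TPM, and Sos1, an exchange factor for Ras, at 17.3 ± 1.89 TPM. Their ranges of mean ± SD overlapped. Among the 7 inhibitory genes only Inpp5d and Pirb, at 145 ± 8.88 and 70.8 ± 6.77 TPM, ranked below the 10th place of 32.

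**Figure D1:**
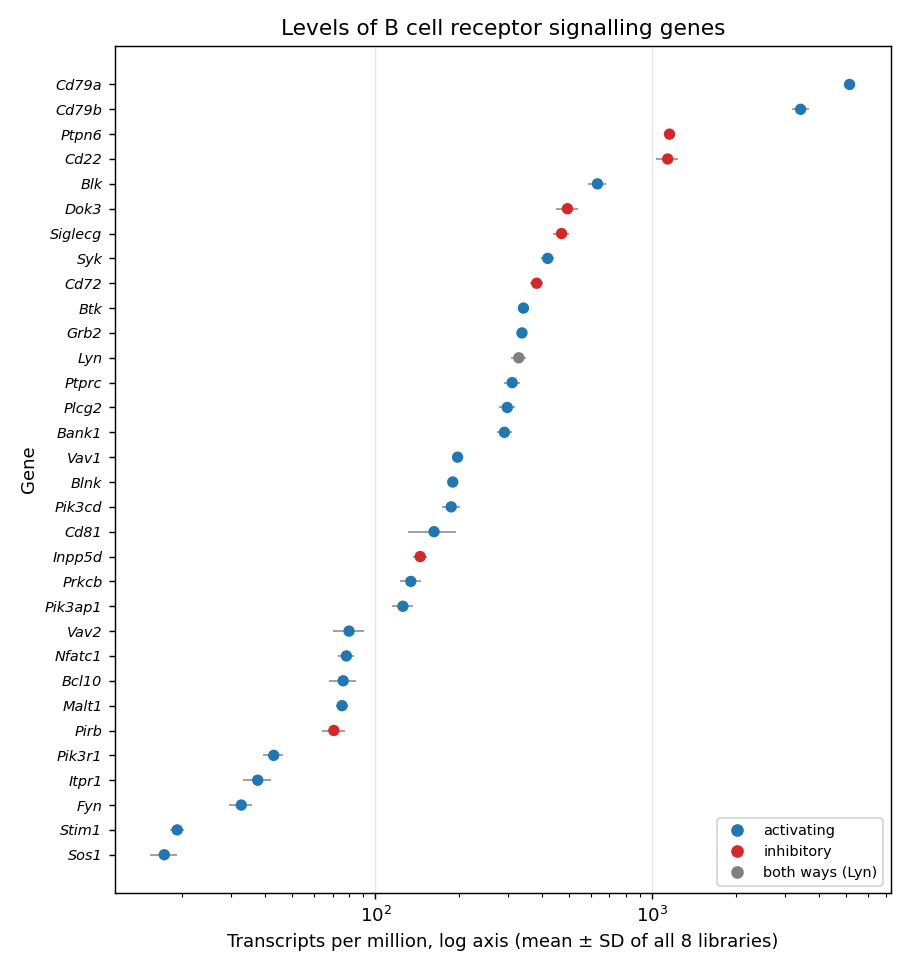
TPM of the 32 B cell receptor signalling genes on a log axis, as mean (points) and SD (bars) of all 8 libraries, coloured by class (activating, inhibitory, or both ways for Lyn). Cd79a and Cd79b, at 5153 and 3430 TPM, lie above every other gene, and 5 of the 7 inhibitory genes are among the 9 highest.

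No gene of the set passed the threshold. Of the 32 genes, 0 rose and 0 fell at an adjusted p under 0.05 (quasi-likelihood test of edgeR, Benjamini-Hochberg over 13035 tested genes), where 3.12% of all genes were called, 238 (1.83%) higher and 169 (1.3%) lower. Among the 5076 genes with at least 40 CPM, which include all 32, 2.38% were called, 0.512% higher and 1.87% lower. The smallest adjusted p was 0.0934, for Cd22. At an unadjusted p under 0.05 there were 11 of the 32 genes, 3 higher and 8 lower in the labelled libraries, against 17.3% of all tested genes, 9.47% higher and 7.87% lower. Of the genes with at least 40 CPM, 16% met the same rule, 4.47% higher and 11.6% lower. The fits with RLE or upper-quartile factors, with no filter and with immunoglobulin genes removed each called 0 of the 32 genes. So did each fit that left out a single library other than GFP-ZFP36L1 replicate 1. Some other fits called more genes of the set and more genes in all. At an unadjusted p under 0.05 DESeq2 had 14 of the 32 genes, with 17.6% of all genes, and limma voom 15, with 23.2%. DESeq2 called 2 lower, Cd22 and Ptprc, while calling 7% of all genes. limma voom with quality weights called 4 lower, Cd22, Ptprc, Nfatc1 and Plcg2, while calling 8.08%. The fit without GFP-ZFP36L1 replicate 1 called 3 lower, Grb2, Nfatc1 and Plcg2, at 7.19% of all genes. The fit with the number of the sample title as a term called Cd22 and Ptprc lower and Bcl10 higher, at 7.9%, and the one with the trend in transcript length and GC removed called Cd22 lower, at 4.17%.

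The differences were small in every gene. Log2 fold changes of libraries labelled GFP-ZFP36L1 over controls ran from -0.23 for Cd22 to 0.19 for Bcl10, with 8 genes positive and 24 negative, and their median was -0.098 beside -0.0067 over all tested genes and -0.026 over those with at least 40 CPM. Of the set 25.0% were positive, beside 47.9% of all tested genes and 38.1% of those with at least 40 CPM. The 95% intervals of all 32 folds lay inside a 1.5-fold change in either direction, and those of 15 lay inside 1.2-fold. The lowest bound was 0.747-fold, for Cd79b, and the highest 1.48-fold, for Cd81, the gene with the widest interval.

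**Figure D2:**
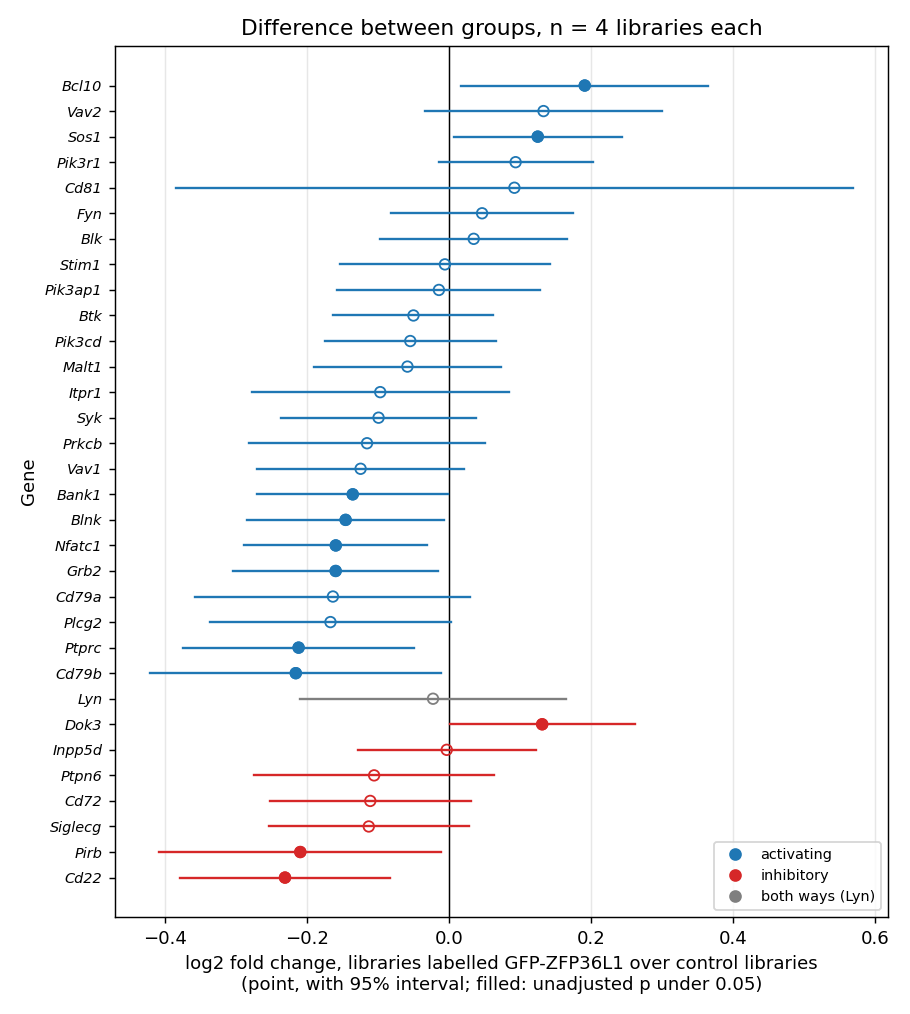
Log2 fold change of each of the 32 genes, libraries labelled GFP-ZFP36L1 over control libraries (n = 4 each), with 95% intervals, with activating genes at the top, then Lyn, and inhibitory genes at the bottom, each ordered by value. Filled points mark the 11 genes with an unadjusted p under 0.05, none of which passed adjustment; Cd22 has the lowest value, -0.23, and Bcl10 the highest, 0.19.

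Both activating and inhibitory components had more negative than positive log2 fold changes, and a difference between these classes was not tested. The 24 activating genes had 7 positive and 17 negative log2 fold changes with a median of -0.078, and the 7 inhibitory genes had 1 positive and 6 negative with a median of -0.11. With the length and GC trend removed, the activating median was -0.13. In each library the median deviation of the activating genes from their own mean over libraries was -0.044 ± 0.069 in the labelled libraries and 0.036 ± 0.015 in the controls on the log2 scale. That of the inhibitory genes was -0.052 ± 0.043 in the labelled libraries and 0.049 ± 0.038 in the controls. GFP-ZFP36L1 replicate 1 lay within the controls for the activating genes, at 0.046, while replicates 2, 3 and 4 lay below them, at -0.026, -0.10 and -0.094. For the inhibitory genes the labelled libraries ran from -0.091 to 0.0084 and the controls from -0.00038 to 0.090, and the groups overlapped.

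Among the receptor and coreceptor genes, Cd79a (ENSMUSG00000003379, chromosome 7, 24897381 to 24902197, plus strand), encoding the CD79A chain, had 2717, 2363, 2369 and 2106 CPM in GFP-ZFP36L1 replicates 1 to 4 and 2833, 2709.6, 2695 and 2464 CPM in control replicates 1 to 4. Replicate 1 of the labelled libraries lay among the controls and the groups overlapped. Cd79b (ENSMUSG00000040592, chromosome 11, 106311341 to 106314762, minus strand), encoding its partner chain, had 1754, 1519, 1535 and 1327 CPM in GFP-ZFP36L1 replicates and 1959, 1814, 1735 and 1615 CPM in control replicates. Again only replicate 1 of the labelled libraries reached the controls. The log2 fold changes were -0.16 ± 0.09 and -0.22 ± 0.09 (SE; adjusted p = 0.378 and 0.260, edgeR's quasi-likelihood test), and the fold of Cd79b had a 95% interval of 0.747 to 0.993. Both are short transcripts, and with the trend in transcript length and GC removed from each library their log2 fold changes were -0.13 and -0.18. In both groups their levels were highest in replicate 1 and lowest in replicate 4, and the fit that adds the title number gave log2 fold changes of -0.12 and -0.17.

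Ptprc (ENSMUSG00000026395, chromosome 1, 138062861 to 138175708, minus strand), encoding CD45, the phosphatase that keeps Src family kinases ready for activation and that is detected as B220 in the gate, had 1924, 1878, 1658 and 1668 CPM in GFP-ZFP36L1 replicates and 2036, 2097, 2105 and 2017 CPM in control replicates. All 4 labelled libraries lay below all 4 controls. Its log2 fold change was -0.21 ± 0.07 (SE), a fold of 0.863 (adjusted p = 0.155, edgeR's quasi-likelihood test). DESeq2 gave it an adjusted p of 0.0165, and the authors' deposited table gave 0.0230. Of the 16 alternatives, 3 called Ptprc lower. By edgeR without 1 library each, its adjusted p ran from 0.0533 to 0.356, so that none of these fits called it. Cd81, a tetraspanin of the coreceptor complex, averaged 164 ± 42.9 CPM in labelled libraries and 153 ± 35.0 CPM in controls (SD, n = 4 each). In both groups replicate 1 was the highest, at 217 CPM in the labelled group and 206 CPM in the controls, and the groups overlapped.

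Of the 5 kinase genes, 0 had an unadjusted p under 0.05. Syk (ENSMUSG00000021457, chromosome 13, 52583173 to 52648792, plus strand) had 1307, 1301, 1226 and 1257 CPM in GFP-ZFP36L1 replicates and 1347, 1327, 1356 and 1424 CPM in control replicates. All labelled libraries lay below all controls, the nearest at 1307 and 1327 CPM, and the log2 fold change was -0.099 ± 0.06 (SE; adjusted p = 0.460, edgeR's quasi-likelihood test). Btk (ENSMUSG00000031264, chromosome X, 134542336 to 134583570, minus strand), the kinase whose loss blocks B cell maturation, had 374, 351, 349.9 and 349 CPM in GFP-ZFP36L1 replicates and 371, 369, 374 and 361 CPM in control replicates. Replicate 1 of the labelled libraries lay just above the highest control and the other 3 below all controls, so that the groups overlapped. The fold of Btk was 0.966, with a 95% interval of 0.893 to 1.04. The Src family kinases had folds of 1.02 for Blk (interval 0.935 to 1.12), 1.03 for Fyn (0.945 to 1.13) and 0.985 for Lyn (0.865 to 1.12), and in each of these genes the groups overlapped.

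The 4 adaptor genes all had negative log2 fold changes. Blnk (ENSMUSG00000061132, chromosome 19, 40928927 to 40994535, minus strand), the scaffold phosphorylated by SYK, had 389, 367, 346 and 356 CPM in GFP-ZFP36L1 replicates and 438, 390.4, 402 and 381 CPM in control replicates. Only replicate 1 of the labelled libraries reached the controls. Grb2 (ENSMUSG00000059923, chromosome 11, 115644045 to 115708597, minus strand), an adaptor that couples receptors to Ras and in B cells also damps calcium flux, had 350.1, 315, 299.8 and 291 CPM in GFP-ZFP36L1 replicates and 368, 348, 347 and 339 CPM in control replicates. The pattern was the same, with replicate 1 among the controls and the other 3 below them. Bank1 (ENSMUSG00000037922, chromosome 3, 136053363 to 136326066, minus strand), a scaffold that binds LYN and phospholipase C, had 727, 662, 711 and 704 CPM in GFP-ZFP36L1 replicates and 737, 811, 779.9 and 752 CPM in control replicates. Here all labelled libraries lay below the controls. The log2 fold changes were -0.15 ± 0.06 for Blnk, -0.16 ± 0.07 for Grb2 and -0.14 ± 0.06 for Bank1 (SE; adjusted p = 0.261, 0.233 and 0.286, edgeR's quasi-likelihood test). Without GFP-ZFP36L1 replicate 1, Grb2 was called lower, at 0.0431 (adjusted p, same edgeR test). Pik3ap1, which encodes the PI3-kinase adaptor BCAP, had a fold of 0.990 with an interval of 0.897 to 1.09.

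Of the genes for lipid enzymes and exchange factors, Sos1 (ENSMUSG00000024241, chromosome 17, 80393751 to 80480453, minus strand) had 62.1, 64.0, 66.2 and 63.5 CPM in GFP-ZFP36L1 replicates and 53.4, 60.0, 59.3 and 61.8 CPM in control replicates. Its labelled libraries all lay above the controls, the sole gene of the set with that pattern, and the log2 fold change was 0.13 ± 0.05 (SE; adjusted p = 0.258, edgeR's quasi-likelihood test). Plcg2, the phospholipase that makes the calcium-releasing messenger, averaged 408 ± 47.0 CPM in labelled libraries and 458 ± 13.4 CPM in controls. GFP-ZFP36L1 replicate 1 was its highest library at 477 CPM and the other 3 labelled libraries, at 377 to 399.7 CPM, lay below every control; without replicate 1 it was called lower (adjusted p = 0.0232, edgeR's quasi-likelihood test, against 0.295 with all libraries). The PI3-kinase genes Pik3cd, the catalytic subunit of leukocytes, and Pik3r1, its regulatory subunit, had folds of 0.963 (interval 0.886 to 1.05) and 1.07 (0.990 to 1.15). The exchange factor genes Vav1 and Vav2 had folds of 0.917 (0.829 to 1.01) and 1.097 (0.977 to 1.23), and their groups overlapped.

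In the branch to calcium, NFAT and NF-kB, Nfatc1 (ENSMUSG00000033016, chromosome 18, 80606205 to 80713071, minus strand), encoding a transcription factor activated by calcium, had 206, 184, 173 and 183 CPM in GFP-ZFP36L1 replicates and 201, 209, 209 and 214 CPM in control replicates. Replicate 1 of the labelled libraries lay among the controls and the other 3 below them. The log2 fold change was -0.16 ± 0.06 (SE; adjusted p = 0.178, edgeR's quasi-likelihood test), and the adjusted p was 0.0328 in that edgeR test without GFP-ZFP36L1 replicate 1. Bcl10 (ENSMUSG00000028191, chromosome 3, 145922804 to 145934356, plus strand), the adaptor that links protein kinase C to NF-kB together with MALT1, had 145, 124, 123 and 109 CPM in GFP-ZFP36L1 replicates and 116, 115, 105 and 102 CPM in control replicates. Replicates 1 to 3 of the labelled libraries lay above the controls and replicate 4 among them. Its log2 fold change of 0.19 ± 0.08 (SE) was the highest of the set (adjusted p = 0.236, edgeR's quasi-likelihood test), and it was called higher (adjusted p = 0.00496, same edgeR test) once the title number entered as a linear term. Its partner Malt1 had a fold of 0.960 (0.876 to 1.05). Prkcb, encoding protein kinase C beta, Itpr1, a calcium channel of the endoplasmic reticulum, and Stim1 had folds of 0.923 (0.823 to 1.04), 0.935 (0.825 to 1.06) and 0.996 (0.899 to 1.104), each with overlapping groups.

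The 4 inhibitory receptor genes analysed all had negative log2 fold changes. In 3 of them the groups did not overlap by CPM, beside 11.2% of all tested genes and 10.2% of those with at least 40 CPM. Cd22 (ENSMUSG00000030577, chromosome 7, 30865402 to 30880342, minus strand), a sialic acid-binding lectin that damps receptor signalling, had 1806, 1695, 1740.2 and 1847 CPM in GFP-ZFP36L1 replicates and 1977, 2065, 2149 and 2128 CPM in control replicates. Every labelled library lay below every control, and the groups averaged 1772 ± 67.7 and 2079.5 ± 77.01 CPM (mean ± SD, labelled and control libraries). Its log2 fold change was -0.23 ± 0.07 (SE), a fold of 0.852 with a 95% interval of 0.769 to 0.944, and the quasi-likelihood test of edgeR gave an adjusted p of 0.0934. The adjusted p was 0.000354 with DESeq2, 0.0095 with limma voom, 0.0333 by edgeR with the length and GC trend removed, and 0.000426 in the authors' deposited table. Of the 16 alternatives, 4 called Cd22 lower. By edgeR without 1 library each, its adjusted p ran from 0.0561 to 0.260, so that none of these fits called it. Pirb (ENSMUSG00000058818, chromosome 7, 3711409 to 3720391, minus strand), a receptor for MHC class I with inhibitory motifs, had 97.2, 113, 107 and 78.8 CPM in GFP-ZFP36L1 replicates and 117, 115, 113 and 113 CPM in control replicates. The labelled libraries lay below the controls, but replicate 2 by only a small margin, at 112.79 CPM against 112.83 CPM in the lowest control, and replicate 4 was the lowest. The log2 fold change was -0.21 ± 0.09 (SE; adjusted p = 0.259, edgeR's quasi-likelihood test). Pirb shares sequence with related genes of its family, Pira2, Gm15448 and Gm14548, which held 11942, 2814 and 2435 counts over all libraries beside its 37550, so its counts are uncertain where reads could fall on either. Pirb is also a myeloid gene; the 13 myeloid markers summed to 13.4 to 15.2 CPM in labelled libraries and 13.1 to 16.1 CPM in controls, with Cd14, S100a8 and Mpo at or near 0; of the 7 tested, 3 had positive and 4 negative log2 fold changes. Itgam rose, at 2.62 to 4.03 CPM in labelled libraries and 1.49 to 2.27 CPM in controls, and Adgre1, which did not pass (adjusted p = 0.0815, edgeR's quasi-likelihood test), had 0.926 to 2.33 CPM in labelled libraries and 2.66 to 3.78 CPM in controls. The part of such cells in the Pirb values was not tested.

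Siglecg, another sialic acid-binding inhibitory receptor, averaged 729 ± 46.9 CPM in labelled libraries and 788 ± 13.8 CPM in controls, without overlap, a fold of 0.925 (interval 0.839 to 1.02). Cd72, a lectin-like inhibitory receptor, averaged 423 ± 10.1 and 457 ± 35.8 CPM in labelled and control libraries, with overlap. Exons of Cd72 share 1423 bp with Tesk1 on the other strand, and since it is unknown whether the counting used strand, the reads of these genes, 154126 counts for Cd72 and 19326 for Tesk1, may be mixed. Cd81, Lyn, Cd22 and Ptpn6 also share exon sequence with a gene on the other strand, but those genes held 192, 217, 86 and 71 counts over all libraries. Itpr1 shares 181 bp of exon with Gm44101 and 108 bp with Gm44040 on the other strand, for which no counts were given.

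Of the 3 inhibitory effector genes, 1 had a positive and 2 a negative log2 fold change. Ptpn6 (ENSMUSG00000004266, chromosome 6, 124720707 to 124738714, minus strand), encoding the phosphatase SHP-1, had 1154, 1092, 963 and 986 CPM in GFP-ZFP36L1 replicates and 1205, 1140.01, 1115 and 1052 CPM in control replicates. The groups overlapped, and the fold was 0.930 (interval 0.827 to 1.05; adjusted p = 0.535, edgeR's quasi-likelihood test). Dok3 (ENSMUSG00000035711, chromosome 13, 55523231 to 55529296, minus strand), an adaptor that recruits inhibitory effectors, had 416, 429, 446 and 411 CPM in GFP-ZFP36L1 replicates and 418, 368, 389 and 379 CPM in control replicates. Control replicate 1 lay among the labelled libraries and the other 3 controls below them, and the log2 fold change was 0.13 ± 0.06 (SE), the sole positive one among the inhibitory genes (adjusted p = 0.284, edgeR's quasi-likelihood test). Inpp5d, the lipid phosphatase SHIP-1, averaged 370.02 ± 21.04 CPM in labelled libraries and 371 ± 7.17 CPM in controls. Its fold was 0.998 (interval 0.915 to 1.09), with overlapping groups.

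**Figure D3:**
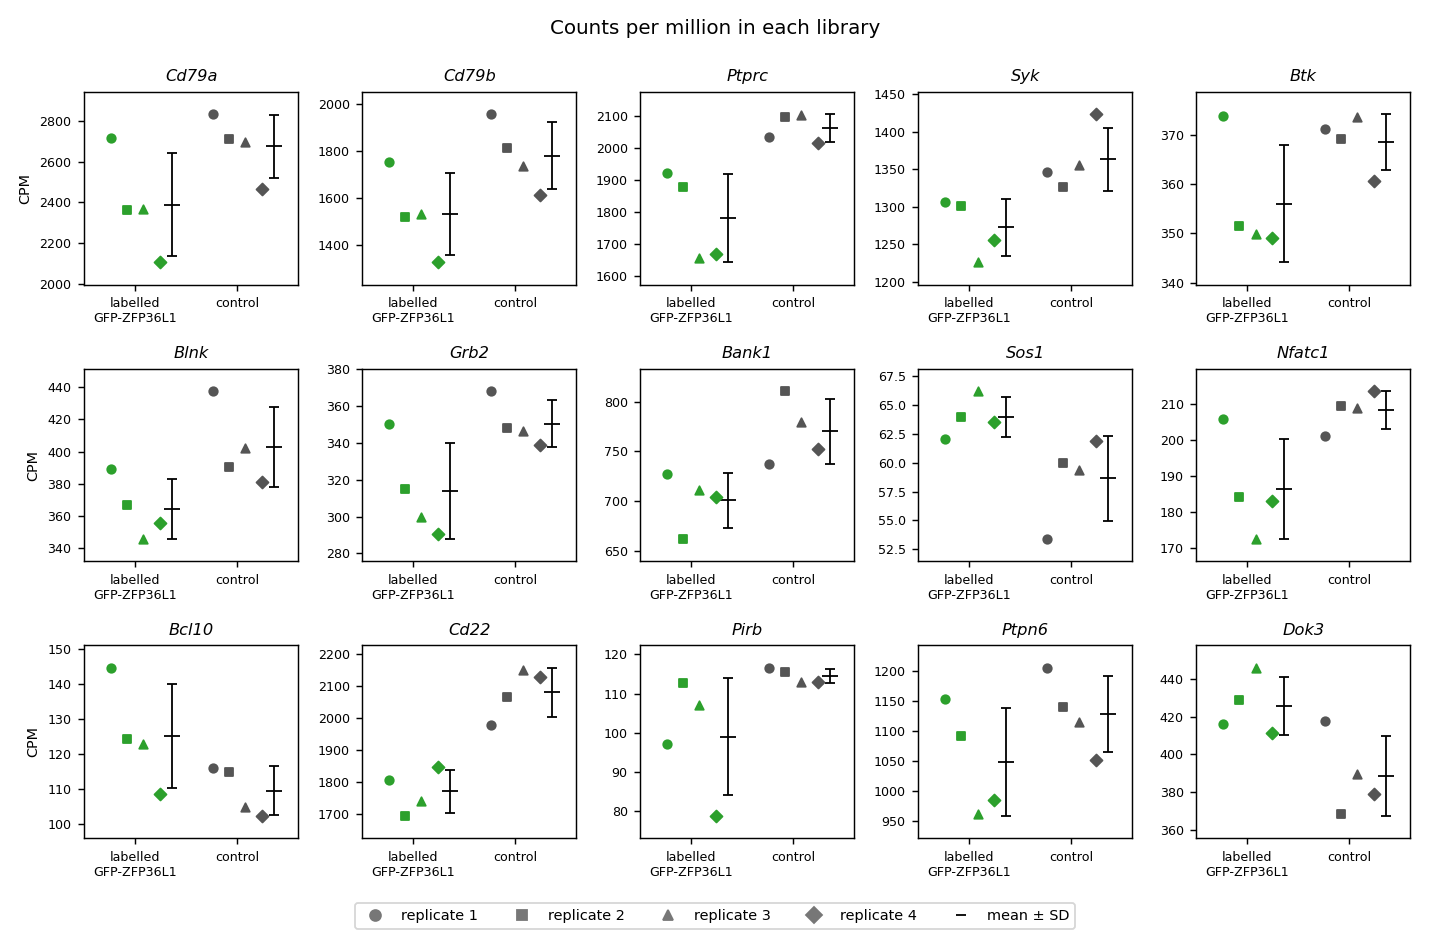
CPM of 15 genes in each library, labelled GFP-ZFP36L1 at the left and control at the right of each panel, with replicates as symbols and mean ± SD beside them; the vertical axes do not start at 0. Cd22 and Ptprc show 4 labelled libraries below 4 controls, whereas in Cd79b, Grb2, Blnk and Nfatc1 replicate 1 of the labelled group lies among the controls.

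By CPM, groups did not overlap in 7 of the 32 genes (21.9%). Sos1 was higher and Cd22, Ptprc, Pirb, Syk, Siglecg and Bank1 were lower in the labelled libraries. Overlap on the TPM scale was not examined. Among all tested genes 11.2% did not overlap, 6.24% higher and 4.98% lower, and among genes of at least 40 CPM 10.2% did not, 3.03% higher and 7.19% lower. Cd22 and Ptprc, 2 of the 32 genes, had an adjusted p under 0.05 in the authors' deposited table, where 6.63% of its genes did. All 32 had the same sign there as here, and so had all 407 genes called here. That table compares the same libraries, so its signs and p-values are not independent of those here.

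The pathway holds other genes beyond the set, listed by textbook role, likewise with earlier results of these data known. Of 70 further activating genes, all tested, 1 rose and 2 fell in edgeR's quasi-likelihood test. Of 40 further genes listed as inhibitory, 37 tested, 0 rose and 4 fell. Among all tested genes 1.83% rose and 1.3% fell. Among those with at least 40 CPM, a level that not all listed genes reach, 0.512% rose and 1.87% fell. By the same test at an unadjusted p under 0.05, 6 of the 70 were higher and 6 lower, 17.1% together. Of the 37, 5 were higher and 7 lower, 32.4% together. Among all tested genes 17.3% met that rule, 9.47% higher and 7.87% lower. Among those with at least 40 CPM 16% did, 4.47% higher and 11.6% lower. The median log2 fold changes of the further activating and inhibitory genes were -0.026 and -0.022. Rasgrp2, an exchange factor for Rap, fell, with 482, 510.4, 544 and 437 CPM in GFP-ZFP36L1 replicates and 603, 625, 631 and 630.2 CPM in control replicates. All labelled libraries lay below all controls, and the log2 fold change was -0.34 ± 0.07 (SE).

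Ppp3cc, a catalytic subunit of calcineurin, the phosphatase upstream of NFAT, fell, at 78.3 ± 1.71 CPM in labelled libraries and 92.3 ± 4.62 CPM in controls. Of the genes listed as inhibitory, Dgka, a kinase that removes diacylglycerol, and Pecam1, a receptor with inhibitory motifs, fell to 303 ± 16.9 and 234 ± 15.04 CPM in labelled libraries, against 364 ± 11.6 and 278 ± 10.1 CPM in controls. The other 2, Sh3bp2 and Stap1, are adaptors, and Sh3bp2 is known to promote receptor signalling rather than to restrain it. They stood at 129.9 ± 14.3 and 184 ± 6.50 CPM in labelled libraries, against 165 ± 9.29 and 219 ± 9.42 CPM in controls, both falling. By edgeR's quasi-likelihood test the 6 genes that fell had adjusted p between 0.0288 for Ppp3cc and 0.0451 for Pecam1. By that edgeR test 0 of the 6 passed in fits without GFP-ZFP36L1 replicate 2, control replicate 2 or control replicate 3, at adjusted p up to 0.144. Without GFP-ZFP36L1 replicate 3, GFP-ZFP36L1 replicate 4, control replicate 1 and control replicate 4, in that order, 1, 2, 4 and 1 of them passed.

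**Figure D4:**
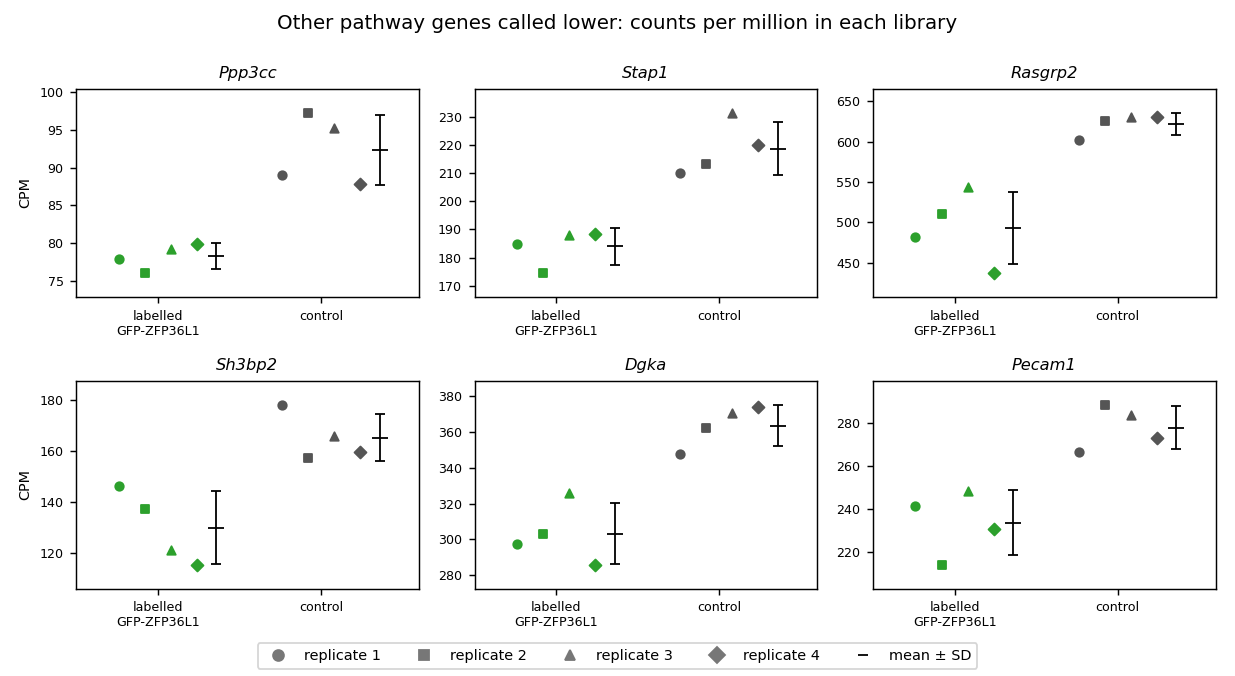
CPM in each library of the 6 further pathway genes that fell, labelled GFP-ZFP36L1 at the left and control at the right, with mean ± SD; the vertical axes do not start at 0. In each of the 6 genes, which were picked because they were called lower in these same libraries, all labelled libraries lie below all controls.

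ZFP36L1 binds the heptamer UAUUUAU, so the 3' UTRs of the set, taken as the longest annotated one of each gene in GENCODE release 21 (GRCm38), were searched for it as TATTTAT on the sense strand. It occurs in 8 of the 32 genes (25.0%), beside 29.6% of the 10978 tested genes with a 3' UTR, and the median 3' UTR was 1256 nt in the set and 1348 nt in those genes. The sites of all these genes but Malt1, which has 2, follow 5' to 3' with their flanks, written as DNA with the heptamer in capitals, because the heptamer is the known core motif of the protein.
Pik3cd, site 1: cactggtaattTATTTATgactcgaaatg
Pik3cd, site 2: gtatgccatgtTATTTATtgaaaagagtc
Pik3r1: gtgctcagtgcTATTTATaagaaatagca
Sos1, site 1: tggcaactttgTATTTATtagcgagttaa
Sos1, site 2: accaaaagtggTATTTATcataatgataa
Itpr1: agaatagccagTATTTATgttttttataa
Stim1: tccttcatcatTATTTATtaactgaccac
Ptprc: gcattactgtgTATTTATcttgaatttcc
Pirb: tggatatatttTATTTATgtgtagtatgt

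On the minus strand of chromosome 1 the heptamer of Ptprc covers 138063495 to 138063501, 1005 nt into a 3' UTR of 1099 nt, and on that of chromosome 7 the heptamer of Pirb covers 3711825 to 3711831, 820 nt into 1242 nt. Sos1 has its sites on the minus strand of chromosome 17, at 80396576 to 80396582 and 80395223 to 80395229. On minus strands too are those of Pik3cd, chromosome 4, 149650462 to 149650468 and 149649371 to 149649377, and of Pik3r1, chromosome 13, 101680626 to 101680632. The plus strand holds those of Itpr1, chromosome 6, 108550176 to 108550182, and of Stim1, chromosome 7, 102436070 to 102436076. Neither receptor chain, none of the 5 kinases and none of the inhibitory effectors holds the heptamer in its longest 3' UTR. The 8 genes with a heptamer had 2 positive and 6 negative log2 fold changes with a median of -0.056, and the 24 without had 6 positive and 18 negative with a median of -0.11. Over all tested genes the medians were 0.0045 with a heptamer and -0.0056 without. Of the 7 genes whose groups did not overlap, Ptprc and Pirb, both lower in the labelled libraries, hold 1 heptamer each, Sos1, higher in them, holds 2, and Cd22, Syk, Siglecg and Bank1, all lower, hold 0.

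**Figure D5:**
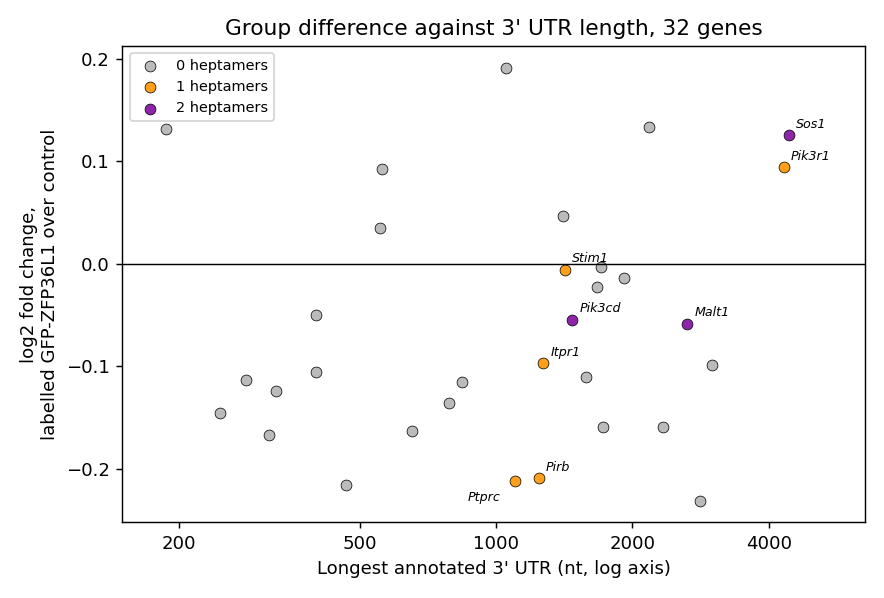
Log2 fold change (libraries labelled GFP-ZFP36L1 over controls) of the 32 genes against the length of the longest annotated 3' UTR on a log axis, coloured by the number of UAUUUAU heptamers in it. The 8 genes with a heptamer are named and run from -0.21 for Ptprc to 0.13 for Sos1, within the range of the 24 genes without.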

How the data were processed

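Whole-number counts per Ensembl gene, deposited by the authors, were the basis of every test. Build GRCm38 and the tools TopHat2 2.0.12, HTSeq, Trim Galore and DESeq2 1.10.1 stand in the submitters' processing notes. A stranded mRNA kit was used per the labels, with a strand setting for counting not given in the sources used here. Also deposited by the authors was a normalized signal, the raw count divided by 1 constant per library, and only this relation was checked in it. From the comparison table the authors deposited, the log2 fold changes and p-values were used where named; the signed fold score the authors deposited there and the mean signal were not.

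Symbols came from GENCODE mouse release 21 or a list of gene names, for 42548 of 43629 identifiers. In R 4.3.3, edgeR 4.0.16 kept 13035 genes by filterByExpr, scaled libraries by TMM and fitted group as the sole term with robust quasi-likelihood dispersions; an adjusted p under 0.05 was called. CPM use TMM-scaled library sizes. TPM use the union of annotated exons and were used between genes only. Standard errors come from the F statistic and 95% intervals from the t distribution. The script was tested on simulated counts. Alternatives were DESeq2 1.42.0, limma 3.58.1 voom with quality weights, upper-quartile and RLE factors, no filter, immunoglobulin genes removed, the sample's title number as a linear term and each library left out. Removal of the trend with transcript length and GC was added after seeing the data. Members and lists were chosen with earlier results of these data known. All genes of the set are accounted for; values per library are given for Cd79a, Cd79b, Syk, Btk, Cd22, Ptpn6 and every gene with an unadjusted p under 0.05, and other pathway genes are named if called, up to 5 per list and direction; 1 gene that this rule takes is not reported here. Each count column was matched to its library by title.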

Additional observations from a re-analysis of the deposited data

Results flagged for a closer look

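In 3 of the 64 groups of 4 libraries examined, 2 for each of the 32 genes, 1 library stood far from the other 3 by Dixon's test at the 95% level; chance flags about 1 group in 20. Control replicate 1 had 206 CPM of Cd81, while the other 3 controls lay between 132 and 138 CPM. GFP-ZFP36L1 replicate 2 had 629 CPM of Blk, while the other labelled libraries lay between 560.2 and 569 CPM. GFP-ZFP36L1 replicate 1 had 374 CPM of Btk, while the other labelled libraries lay between 349 and 351 CPM.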

How the results depend on the processing

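No paired analysis was possible because the sample titles carry different numbers, 1 to 8, and no label gives shared replicate numbers. Over the 32 genes and 16 alternatives, 480 log2 fold changes kept direction and side of the threshold, 13 passed it and 19 changed sign. Genes of the set called lower numbered 2 with DESeq2, 4 with limma voom, 2 with the title number as a term and 1 with the length and GC trend removed, which moved the activating median to -0.13; the title number also gave 1 called higher. Further activating genes called higher and lower numbered 3 and 4 with limma voom, and 4 were lower with the title number, where 1 further inhibitory gene was higher. Without 1 library each, 0 to 3 genes of the set were called lower and 0 higher; of the further activating genes 0 to 1 were higher and 0 to 4 lower, and of the further inhibitory genes 0 to 5 were lower. The log2 fold changes that changed sign were as follows. With upper-quartile factors Pik3ap1, Stim1 and Inpp5d were at 0.00086, 0.0081 and 0.012, and with the title number Stim1, Lyn and Inpp5d at 0.014, 0.018 and 0.0033. Without 1 library each, Cd81 ranged from -0.066 to 0.27, Blk from -0.0063 to 0.057, Pik3ap1 from -0.061 to 0.023, Stim1 from -0.048 to 0.056, Lyn from -0.073 to 0.040 and Inpp5d from -0.021 to 0.034. The cause was not tested. With 4 libraries a group, differences smaller than the intervals, which reached 1.48-fold for Cd81, were not detectable.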
